A study of Mus musculus with 4 samples.

Results

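The genes described here are 36 genes of the cell cycle and of DNA replication, chosen by gene symbol. All 36 symbols were found among the 23235 gene symbols of the deposited gene files, and all 36 had a mean of at least 0.5 FPKM, the minimum set for testing. FPKM are fragments scaled to the length of the transcript and to the mapped fragments of the library. RNA was sequenced from a 2 cm piece of colon, taken where it leaves the caecum, of mice of mixed strain at 6 weeks of age. The 2 mutant libraries had the genotype Nkx2.2flox/flox; Villin-Cre/+, and the 2 control libraries had the genotype Nkx2.2flox/+, with a floxed allele of their own and no Cre. Nkx2-2 is a homeodomain transcription factor of hormone-secreting enteroendocrine cells. The Villin promoter drives Cre in the gut epithelium, so muscle, stromal and blood cells in the dissected piece keep the gene. The groups differ both in the second floxed allele and in the Cre transgene, and effects of these on the values cannot be told apart. Whether each library is a separate animal is not in the labels, so the p-values below cover only the spread among 4 libraries, which may be technical.

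In the colon, dividing cells sit in the lower part of the crypts, where stem cells and their transit-amplifying daughters replace the epithelium continuously. A cell that commits to division turns on cyclin D and cyclin E with their kinases, which release E2F factors to activate genes for licensing replication origins, for copying DNA and for supplying nucleotides. FoxM1 and the DREAM and MuvB complexes control genes that act later, for entry into mitosis, for spindle assembly and for the anaphase-promoting complex. RNA of these genes is therefore a common measure of how many cells of a tissue are dividing.

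Promoter stretches of 5 of the genes are printed because the 2 arms of this program, replication and mitosis, differ in the short elements their promoters are known for. Each runs 5′ to 3′ on the strand of its gene and ends at the base before the RefSeq transcription start, on build GRCm38.p6. Capitals mark matches on either strand to the cell cycle gene homology region (CHR, searched as TTTGAA or TTCGAA), to the CCAAT box (CCAAT) and to the E2F element (TTTCCCGC, TTTGGCGC, TTTCGCGC or TTTGCCGC). Overlapping matches were each counted and run together in the capitals. The sequences lie at chr4:118437344-118437493 on the minus strand for Cdc20, chr2:164769779-164769928 on the plus strand for Ube2c, chr7:135716380-135716529 on the minus strand for Mki67, chr10:69352913-69353062 on the minus strand for Cdk1 and chr1:128359706-128359855 on the minus strand for Mcm6.
Cdc20: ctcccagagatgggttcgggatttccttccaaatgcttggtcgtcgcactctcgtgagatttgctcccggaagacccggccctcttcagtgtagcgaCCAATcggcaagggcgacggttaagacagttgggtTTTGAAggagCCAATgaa
Ube2c: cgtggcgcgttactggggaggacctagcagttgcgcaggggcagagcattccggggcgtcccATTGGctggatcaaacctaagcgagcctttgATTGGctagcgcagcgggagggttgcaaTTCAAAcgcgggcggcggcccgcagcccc
Mki67: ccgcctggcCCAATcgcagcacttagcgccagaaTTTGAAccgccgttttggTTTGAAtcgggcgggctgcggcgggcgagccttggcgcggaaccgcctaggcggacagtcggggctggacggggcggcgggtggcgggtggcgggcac
Cdk1: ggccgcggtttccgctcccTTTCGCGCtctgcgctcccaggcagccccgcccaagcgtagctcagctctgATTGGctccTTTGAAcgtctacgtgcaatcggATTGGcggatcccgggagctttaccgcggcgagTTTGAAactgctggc
Mcm6: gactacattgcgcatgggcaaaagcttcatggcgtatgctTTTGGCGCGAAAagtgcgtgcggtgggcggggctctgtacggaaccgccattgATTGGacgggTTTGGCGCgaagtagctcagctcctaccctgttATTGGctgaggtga

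In Cdc20, which activates the anaphase-promoting complex, a CHR match began at position -18, counted so that -1 is the last base before the start, and stood between CCAAT matches. Ube2c, the ubiquitin-conjugating enzyme of that complex, had a CHR match on the opposite strand at position -29. Cdk1, the mitotic kinase, held CHR, CCAAT and E2F matches in the same stretch. Mcm6, a subunit of the replicative helicase, held E2F and CCAAT matches and no CHR match in the 250 bases searched.

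RefSeq promoters were found for 28 of the 36 genes, as 29 windows of 250 bases. A CHR match was found in 10 of the 29 windows (34.5%), against 17.1% of the 32851 promoter windows in the table. A CCAAT match was found in 23 windows (79.3%), against 33.8% of all. An E2F match was found in 5 windows (17.2%), against 1.86% of all, and 4 of the 5 genes were licensing or helicase genes (Cdc6, Mcm5, Mcm6 and Mcm7), with Cdk1 the other. The 10 genes with a CHR match were Bub1b, Ccnb2, Cdc20, Cdk1, Kif11, Mcm2, Mcm7, Mki67, Top2a and Ube2c. These are matches of letters and not sites shown to be bound.

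Nkx2-2 itself stood at 0.125 and 0.351 FPKM in the mutant libraries, against 0.724 and 0.609 FPKM in the control libraries. It was lower in both mutant libraries, as the genotypes say, and so were 35.1% of all tested genes. Nkx2-2 lay under the 0.5 FPKM minimum and was not tested here. The authors' deposited DESeq results give it a fold of 0.539 at an unadjusted p of 0.687. Sequencing depth, read from the ratio of coverage to FPKM relative to control 1, was 0.464 in mutant 1, 1.03 in mutant 2 and 1.13 in control 2. The width of the deposited 95% intervals implied between 53.8 and 4444 fragments behind a value of 1 of the 36 genes, which covers counting error only. Epithelial markers, 12 genes with the galectin Lgals4 and the keratins Krt8 and Krt19 highest, summed to 8805 and 9824 FPKM in the mutant libraries, against 9099 and 10695 FPKM in the control libraries. Control 1 stood apart in B cell genes, whose 12 markers summed to 20.8 and 15.8 FPKM in the mutant libraries, against 173 FPKM in control 1 and 13.3 FPKM in control 2.

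The 36 genes were expressed in all 4 libraries, at 2.12 FPKM (Cdc6 in control 2) to 108 FPKM (Ube2c in mutant 2). None differed between mutant and control colon past the threshold, an adjusted p under 0.05 in limma with Benjamini-Hochberg adjustment over 13997 genes. In the same fit 0.0643% of all tested genes passed, 0.0357% higher and 0.0286% lower in mutant colon. The smallest adjusted p among the 36 was 0.825, and 0 of them had an unadjusted p under 0.05, against 4.82% of all genes (0.7% higher and 4.12% lower). In the authors' deposited table of DESeq results, all 36 likewise had an adjusted p of 1, while 0.0384% of its genes were under 0.05.

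**Figure D1:**
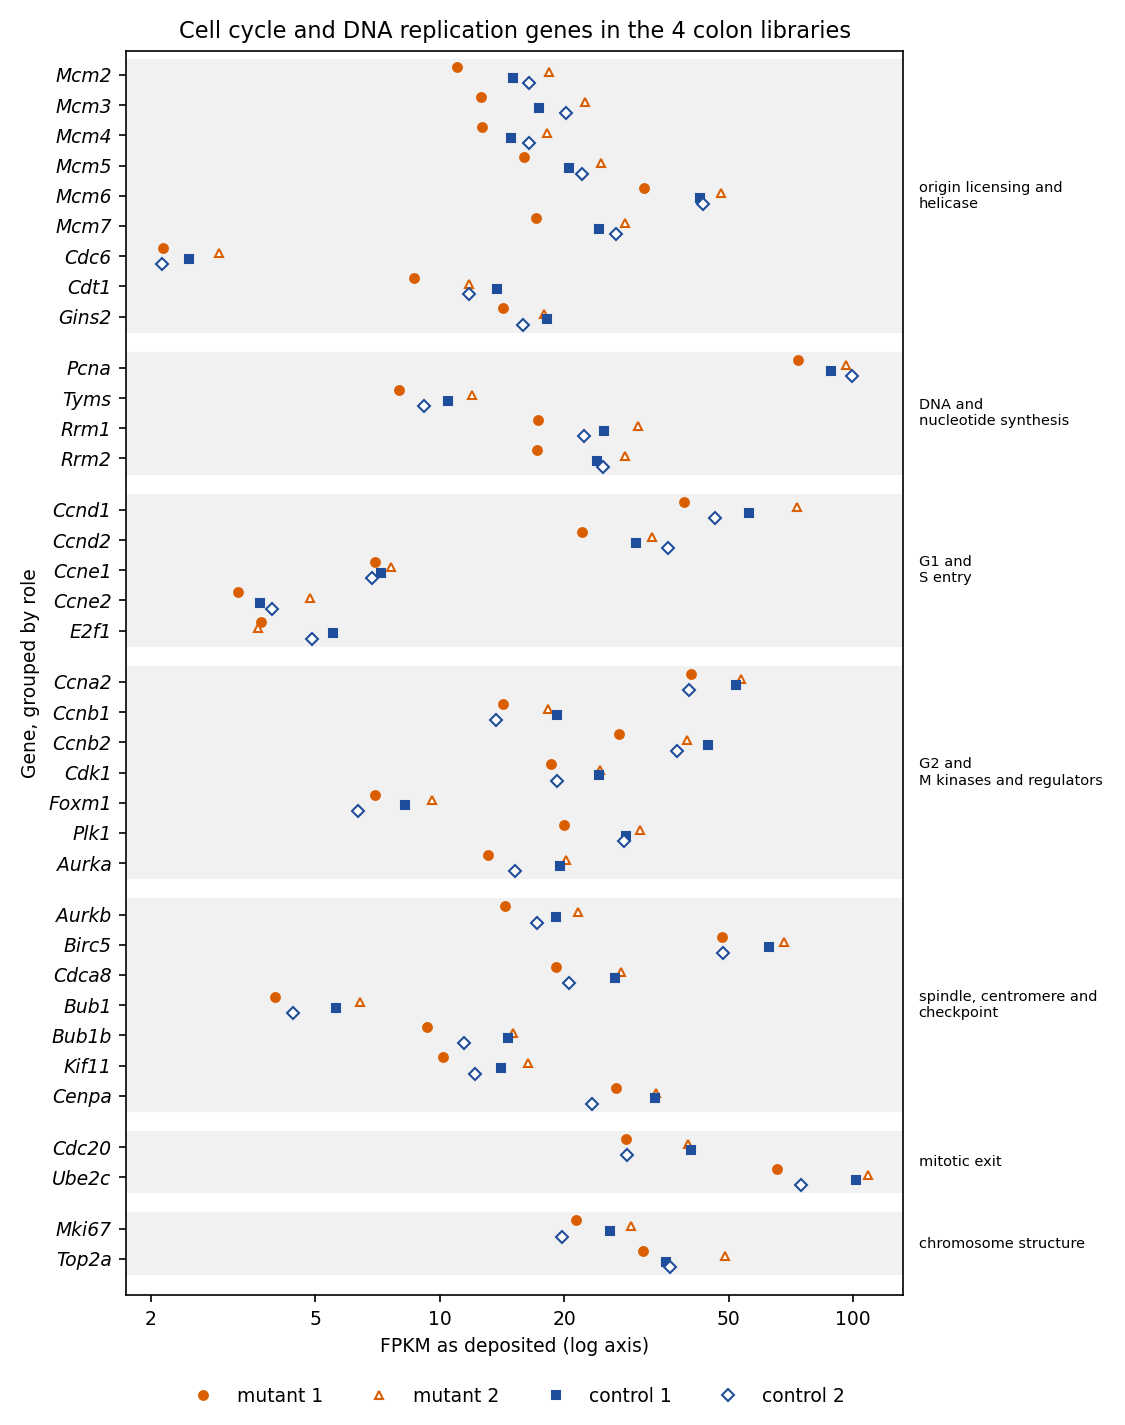
FPKM of the 36 cell cycle and DNA replication genes in each library on a log axis, grouped by role, with 1 marker for each of the 2 mutant and 2 control libraries. Mutant 1 was lowest in 28 genes and mutant 2 highest in 28, and E2f1 was the only gene whose groups did not overlap.

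The log2 changes, taken on FPKM + 0.5 and given as mutant over control, ran from -0.46 for E2f1 to 0.17 for Foxm1. Their 95% intervals all covered 0, and all 36 lay within a log2 change of 1 in either direction, with a lowest bound of -0.95 and a highest of 0.72. After rescaling the libraries by the median ratio of all genes the same held, with bounds between -0.73 and 0.84.

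The direction of these small changes depended on the scaling. As deposited, 11 of the 36 were above 0 and 25 below, but 17.4% of all genes were above 0 and 82.6% below, and the median of all genes was -0.17. The median of the 36 was -0.04. After median ratio rescaling 30 were above 0 and 6 below, with 48.7% of all genes above 0, and the median of the 36 was 0.13 beside -0.01 for all genes. In that table of the authors, as deposited, 29 of the 36 had a fold above 1, where 61% of all genes did, and their folds ran from 0.779 for E2f1 to 1.28 for Foxm1.

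**Figure D2:**
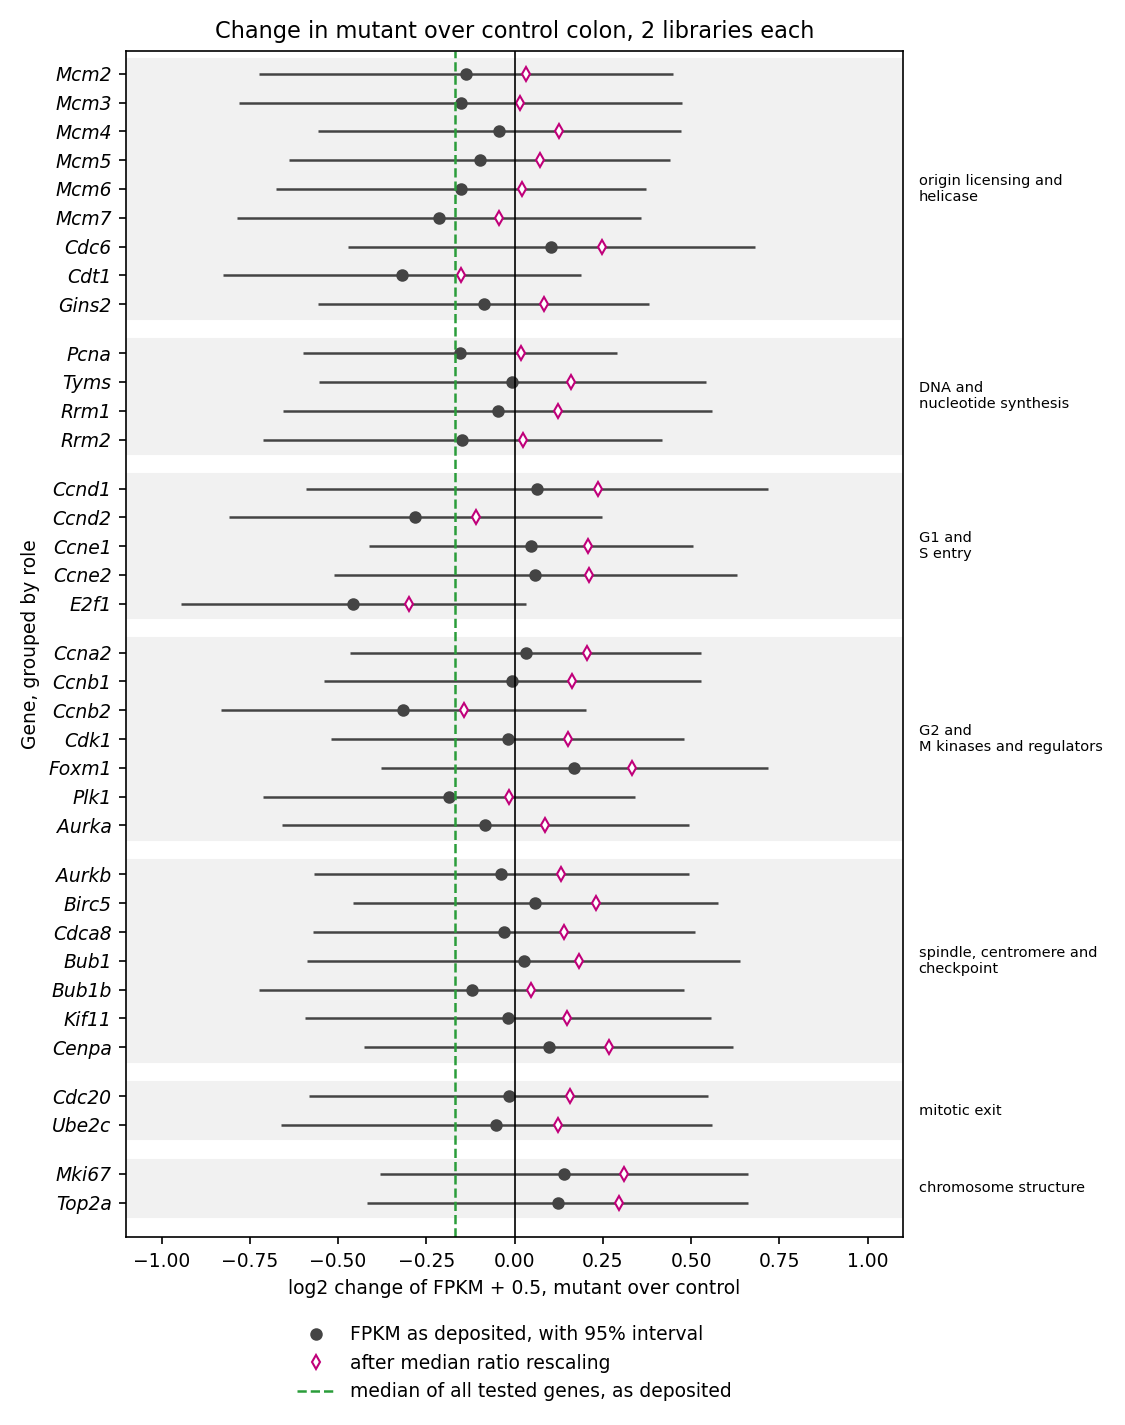
Log2 change of each gene, mutant over control, as a dot with its 95% interval for FPKM as deposited and as an open diamond after median ratio rescaling, with the dashed line at the median of all genes (-0.17). All 36 intervals cross 0, and rescaling moves the number of genes above 0 to 30.

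Single libraries set the direction as well. Without mutant 1, 32 of the 36 were above 0 with a median of 0.22. Without mutant 2, 0 were above 0 and the median was -0.33. Without control 1, 23 were above 0 with a median of 0.06, and without control 2, 5 were above 0 with a median of -0.13. All genes moved as well, with medians of -0.07 without mutant 1 and -0.28 without mutant 2. Their medians were -0.14 without control 1 and -0.20 without control 2. Below 0 were 64.0% of all genes without mutant 1, 84.6% without mutant 2, 75.5% without control 1 and 80.2% without control 2. No gene of the 36 passed the adjusted threshold in these fits, in which the lone library of a group is assumed to vary like the other group. Unadjusted p-values under 0.05 were reached by 2 genes, both higher, without mutant 1 (1.1% of all genes were higher at that level), and by 10 genes, all lower, without mutant 2 (14.6% of all genes were lower).

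**Figure D3:**
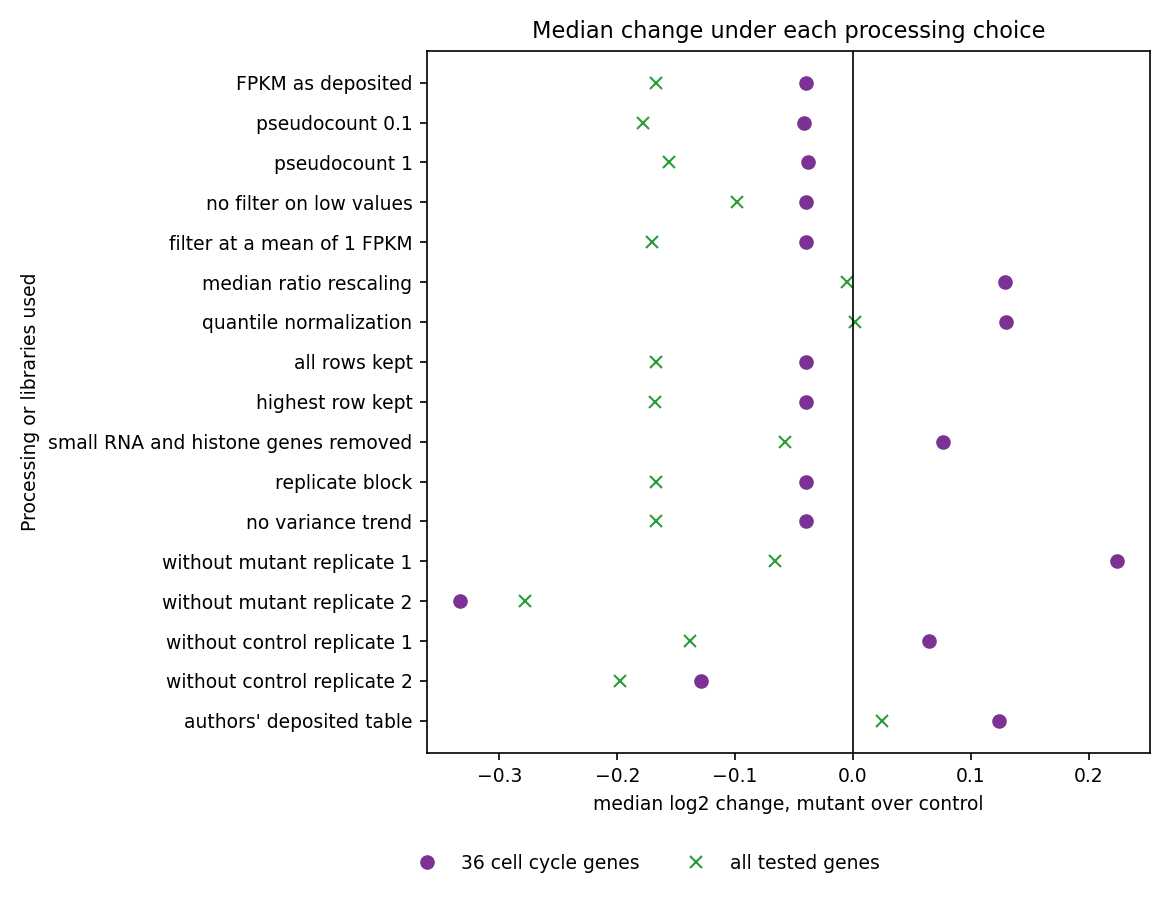
Median log2 change, mutant over control, of the 36 genes (filled circles) and of all tested genes (crosses) under each processing choice or left-out library. The median of the 36 lies between -0.33 without mutant 2 and 0.22 without mutant 1, and is on the positive side after median ratio rescaling (0.13).

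Genes that license origins and unwind DNA overlapped between mutant and control colon. Mcm2 to Mcm7 form the hexameric helicase that Cdc6 and Cdt1 load onto origins, and Gins2 is a subunit of the GINS complex that activates it. Mcm6 (mm9, chromosome 1, 130228168 to 130256233, minus strand) had 31.1 and 47.8 FPKM in the mutant libraries, against 42.6 and 43.3 FPKM in the control libraries. Both controls lay between the mutants, and the log2 change was -0.15 (95% interval -0.67 to 0.37).

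The other helicase subunits were lower in level and had the same order of libraries. Mcm7 ran from 17.1 FPKM in mutant 1 to 28.0 FPKM in mutant 2, Mcm5 from 16.0 to 24.6 FPKM, Mcm3 from 12.6 to 22.4 FPKM, Mcm2 from 11.0 to 18.4 FPKM and Mcm4 from 12.6 to 18.2 FPKM, each with both controls in between. After median ratio rescaling control 1 lay below both mutants for Mcm4, while the other subunits kept both controls in between. Mcm6, Mcm7 and Mcm5 were the highest subunits, in that order, in all 4 libraries. The highest subunit exceeded the lowest 2.82-fold and 2.63-fold in the mutant libraries, against 2.86-fold and 2.64-fold in the control libraries.

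Cdc6, an ATPase of the loading step, had 2.14 and 2.92 FPKM in the mutant libraries, against 2.47 and 2.12 FPKM in the control libraries. It was the lowest of the 36 genes in mean level, its groups overlapped, and its log2 change was 0.10 (95% interval -0.47 to 0.68). Cdt1, the partner of Cdc6 that geminin holds in check, had 8.66 and 11.8 FPKM in the mutant libraries, against 13.7 and 11.8 FPKM in the control libraries. The ratio of Cdt1 to Cdc6 was 4.05 and 4.03 in the mutant libraries, against 5.56 and 5.54 in the control libraries. It was singled out after its values were seen and was not tested. Other pairs of members were compared too. Bub1b to Bub1 likewise did not overlap, at 2.33 and 2.35 in the mutant libraries, against 2.61 and 2.59 in the control libraries. Neither did Ccnb2 to Ccnb1 and Mcm6 to Mcm4, the latter only narrowly, at 2.6297 in mutant 2 and 2.6310 in control 2. The remaining pairs overlapped: Rrm2 to Rrm1, Ccnd1 to Ccnd2, Ccne1 to Ccne2, Birc5 to Aurkb, Mcm6 to Mcm2 and Ube2c to Cdc20. The share of other gene pairs that do not overlap was not computed, so no result is drawn from these ratios. Gins2 ranged over 14.2 to 18.1 FPKM and overlapped between the groups.

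Genes that copy DNA and supply its building blocks overlapped between the groups throughout. Pcna, the sliding clamp of the replicative polymerases, had 73.5 and 96.1 FPKM in the mutant libraries (mean 84.8, SD 16.0, n = 2), against 88.5 and 99.2 FPKM in the control libraries (mean 93.8, SD 7.57, n = 2). Its log2 change was -0.16 (95% interval -0.60 to 0.29), and the mutants differed from each other by more than the group means did. Rrm1 and Rrm2, the large and small subunits of ribonucleotide reductase, ranged over 17.2 to 30.1 FPKM and 17.2 to 28.1 FPKM. The ratio of Rrm2 to Rrm1 stayed between 0.933 and 1.11 in the 4 libraries. Tyms, thymidylate synthase, ranged over 7.96 to 12.0 FPKM.

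Of the genes that carry cells from G1 into S phase, E2f1 was the one member whose groups did not overlap. E2f1 (mm9, chromosome 2, 154385375 to 154395588, minus strand), an activating E2F factor, had 3.68 and 3.63 FPKM in the mutant libraries (mean 3.66, SD 0.0373, n = 2), against 5.51 and 4.91 FPKM in the control libraries (mean 5.21, SD 0.425, n = 2). Its log2 change was -0.46 (SE 0.21, 95% interval -0.95 to 0.03). With an unadjusted p of 0.0631 and an adjusted p of 0.825 in limma, it did not pass the test.

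Both mutant libraries were below both controls for 35.1% of all tested genes, against 1 of the 36 (2.78%), and 0 of the 36 had both mutants above both controls, where 3.39% of all genes did. After median ratio rescaling the log2 change of E2f1 was -0.30, and it still had both mutants below both controls, as 15.3% of all genes then did. Both mutants were then above both controls in 6 genes (Cdc6, Ccne1, Foxm1, Cenpa, Mki67 and Top2a), a share near the 15.3% of all genes. The E2f1 values rested on an implied 58.0 and 127 fragments in the mutant libraries and 187 and 188 in the control libraries.

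The G1 cyclins spread widely within the groups. Ccnd1, cyclin D1, had 39.0 and 72.9 FPKM in the mutant libraries, against 56.0 and 46.4 FPKM in the control libraries, with a log2 change of 0.06 (95% interval -0.59 to 0.72). Ccnd2, cyclin D2, had 22.0 and 32.5 FPKM in the mutant libraries, against 29.8 and 35.7 FPKM in the control libraries, with a log2 change of -0.28 (95% interval -0.81 to 0.25). The highest and lowest Ccnd1 values were both mutant libraries, and the ratio of Ccnd1 to Ccnd2 varied between 1.30 and 2.24.

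Ccne1, cyclin E1, the partner of Cdk2 at S phase entry, varied little. It had 6.96 and 7.63 FPKM in the mutant libraries, against 7.22 and 6.87 FPKM in the control libraries, with a log2 change of 0.05 (95% interval -0.41 to 0.50). Ccne2, cyclin E2, had 3.24 and 4.84 FPKM in the mutant libraries, against 3.67 and 3.92 FPKM in the control libraries, with a log2 change of 0.06 (95% interval -0.51 to 0.63). As deposited, both controls lay between the mutants for Ccne2, but after median ratio rescaling control 1 lay below both mutants. The Ccne2 value in mutant 1 had the fewest implied fragments of all the values, 53.8. Ccne2 has 2 deposited transcripts, and the reading of fragments was checked only in genes with 1.

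Kinases and cyclins of G2 and M phase again overlapped. Ccna2, cyclin A2, which acts from S phase into mitosis, had 40.6 and 53.6 FPKM in the mutant libraries, against 52.0 and 40.0 FPKM in the control libraries, with a log2 change of 0.03 (95% interval -0.47 to 0.53). Ccnb2, cyclin B2, had 27.2 and 39.6 FPKM in the mutant libraries, against 44.7 and 37.6 FPKM in the control libraries, with a log2 change of -0.32 (95% interval -0.83 to 0.20). In Ccnb2 mutant 2 lay between the controls and mutant 1 below all others.

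Cdk1, the kinase that cyclin B activates, ranged over 18.5 to 24.3 FPKM, with 1 library of each group near either end. Ccnb1, cyclin B1, ranged over 13.7 to 19.2 FPKM, and the ratio of Ccnb2 to Ccnb1 over 1.91 to 2.74. Plk1, the Polo kinase of mitotic entry, ranged over 19.9 to 30.4 FPKM, and Aurka, the Aurora kinase of centrosomes, over 13.1 to 20.2 FPKM. Foxm1, the transcription factor of the mitotic genes, had 6.98 and 9.58 FPKM in the mutant libraries, against 8.24 and 6.33 FPKM in the control libraries, and mutant 1 lay between the controls.

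Genes of the spindle, the centromere and the spindle checkpoint overlapped between the groups as well. Birc5, survivin, which with Aurkb and Cdca8 (borealin) belongs to the chromosomal passenger complex, had 48.3 and 67.9 FPKM in the mutant libraries, against 62.5 and 48.3 FPKM in the control libraries. Mutant 1 and control 2 were close to equal, and the log2 change was 0.06 (95% interval -0.46 to 0.58). Aurkb ranged over 14.4 to 21.6 FPKM and Cdca8 over 19.1 to 27.4 FPKM.

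Bub1, a checkpoint kinase of kinetochores, had 3.98 and 6.41 FPKM in the mutant libraries, against 5.60 and 4.41 FPKM in the control libraries, with a log2 change of 0.03 (95% interval -0.59 to 0.64). Bub1b, the checkpoint protein BubR1, ranged over 9.29 to 15.0 FPKM. Both checkpoint genes had both controls between the mutants. Kif11, the kinesin that pushes spindle poles apart, ranged over 10.2 to 16.3 FPKM, and Cenpa, the histone H3 variant of centromeres, over 23.3 to 33.3 FPKM, lowest in control 2.

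The genes of mitotic exit spread widely within both groups. Ube2c had 65.4 and 108 FPKM in the mutant libraries, against 102 and 74.9 FPKM in the control libraries, with a log2 change of -0.05 (95% interval -0.66 to 0.56). Cdc20 had 28.2 and 40.0 FPKM in the mutant libraries, against 40.6 and 28.4 FPKM in the control libraries, with a log2 change of -0.02 (95% interval -0.58 to 0.55). In both genes 1 library of each group was high and the other low, so that the libraries of 1 group differed far more than the groups.

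Of the 2 remaining genes, Mki67 (mm9, chromosome 7, 142881471 to 142908062, minus strand) encodes the proliferation antigen Ki-67, which coats mitotic chromosomes. It had 21.4 and 29.0 FPKM in the mutant libraries (mean 25.2, SD 5.37, n = 2), against 25.8 and 19.7 FPKM in the control libraries (mean 22.8, SD 4.32, n = 2), and its log2 change was 0.14 (95% interval -0.38 to 0.66). In the authors' deposited table it had the smallest unadjusted p of the 36, 0.0945, at a fold of 1.23. Top2a, the topoisomerase that untangles sister chromatids, had 30.9 and 48.9 FPKM in the mutant libraries, against 35.3 and 36.01 FPKM in the control libraries, with a log2 change of 0.12 (95% interval -0.42 to 0.66). Mutant 2 was the highest library for both genes.

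The larger differences were between libraries of the same group. Mutant 2 exceeded mutant 1 in 35 of the 36 genes, E2f1 being the exception, with a median log2 ratio of 0.57, where 76.3% of all genes were higher in mutant 2. After median ratio rescaling it exceeded mutant 1 in 34, with a median of 0.34, where 50.2% of all genes did. Mutant 1 was the lowest library for 28 of the 36 as deposited, beside 66.3% of all genes, and for 12 after rescaling, beside 28.5%. After rescaling control 2 was the lowest library for more of them, 19, beside 22.5% of all genes. Mutant 1 also had the lowest depth of the 4 libraries, and the part of depth in its values was not tested. Mutant 2 was highest for 28 as deposited and for 30 after rescaling, beside 19.3% and 23.5% of all genes. As these are single libraries, no test of the difference was made.

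Between the controls, the mitotic genes and the helicase subunits lay on opposite sides, without a test of the difference between roles. Control 1 exceeded control 2 in all 7 genes of G2 and M kinases and regulators (median log2 ratio 0.37), in all 7 spindle, centromere and checkpoint genes (0.36) and in both mitotic exit genes (0.48). It was below control 2 in all 6 helicase subunits (median -0.13, from -0.22 to -0.02), and also in Pcna, Rrm2, Ccnd2, Ccne2 and Top2a. Other replication genes did not follow the helicase: control 1 was the higher for Cdc6, Cdt1 and Gins2 (log2 ratios 0.22, 0.22 and 0.20) and for Tyms and Rrm1 (0.19 and 0.16). All tested genes had a median of 0.07, and 60.5% of them were higher in control 1. After rescaling, 6 of the 7 kinases and regulators were higher in control 1, with Plk1 the exception, and the 6 helicase subunits were again lower, with a median of -0.19. The 72 other mitosis genes examined were higher in control 1 in 63 cases as deposited and in 57 after rescaling. The 45 other replication genes were higher in 31 and in 23 cases, near the shares of all genes, which were 60.5% as deposited and 50.7% after rescaling. Between the mutants, mutant 2 was higher in all 9 licensing genes (median 0.62) and in all 7 spindle genes (0.58).

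**Figure D4:**
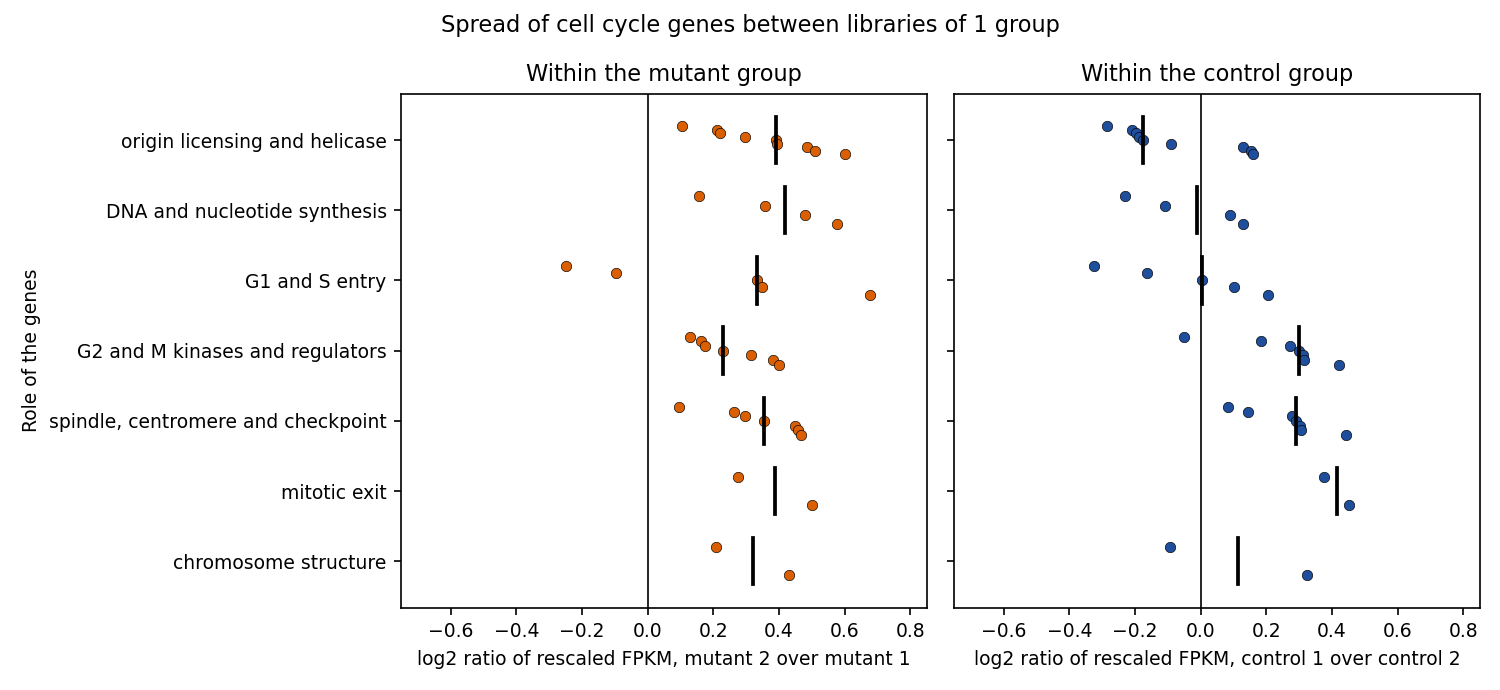
Log2 ratio of rescaled FPKM between the libraries of 1 group for each gene (dots) by role, with the median of each role as a black bar, for mutant 2 over mutant 1 on the left and control 1 over control 2 on the right. Licensing genes lie mostly left of 0 between the controls (median -0.18), while spindle genes lie right of 0 (median 0.29).

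Among the genes with a promoter in the table, the 10 with a CHR match had a median log2 ratio of control 1 over control 2 of 0.29. The 18 without one had 0.18. Control 1 was the higher in 7 of the 10 and in 13 of the 18. The 22 with a CCAAT match had a median of 0.23, and the 6 without one had 0.21. The 5 with an E2F match had a median of -0.02, and the 23 without one had 0.22. These 5 include Mcm5, Mcm6 and Mcm7, helicase subunits already given above as lower in control 1. In the comparison of mutant with control, the medians were -0.04 with and -0.07 without a CHR match, and -0.10 with and -0.05 without an E2F match. For the CCAAT match they were -0.07 with and 0.02 without. These are descriptions of few genes that share libraries.

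Summed over the 36 genes, the level was 734 and 1090.0 FPKM in the mutant libraries, against 995 and 884 FPKM in the control libraries. Set against the epithelial markers of the same library, this was 8.34% and 11.1% in the mutant libraries, against 10.9% and 8.27% in the control libraries, so on this scale as well 1 library of each group was high. Markers of smooth muscle, 8 genes, stood at 16.3% and 18.6% of the epithelial sum in the mutant libraries, against 21.6% and 16.4% in the control libraries. They too were higher in mutant 2 than in mutant 1 and in control 1 than in control 2, and their part in the cell cycle values was not tested. Markers of crypt stem and progenitor cells, 12 genes, summed to 156 and 203 FPKM in the mutant libraries, against 204 and 200.1 FPKM in the control libraries. Of the epithelial sum this was 1.78% and 2.07% in the mutant libraries, against 2.25% and 1.87% in the control libraries. These shares too were higher in mutant 2 than in mutant 1 and in control 1 than in control 2. Between the controls the crypt sums themselves were close, while the epithelial sum was 9099 FPKM in control 1 and 10695 FPKM in control 2. In whole tissue, fewer dividing cells and less RNA per dividing cell cannot be told apart.

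Lymphocytes are another source of dividing cells in the colon wall. B cell markers were high in control 1 alone. Pax5 was listed at 0.143 and 0 FPKM in the mutant libraries, against 4.19 and 0.0589 FPKM in the control libraries. Ms4a1 had 1.62 and 1.01 FPKM in the mutant libraries, against 21.7 and 0.796 FPKM in the control libraries. The 12 B cell markers had 1 gene at 0 in mutant 2 and 1 in control 2.

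The 8 germinal centre B cell markers summed to 33.2 and 41.7 FPKM in the mutant libraries, against 67.0 and 37.2 FPKM in the control libraries. The 8 T cell markers summed to 28.6 and 35.6 FPKM in the mutant libraries, against 73.5 and 39.5 FPKM in the control libraries. Control 1 was thus the highest library on each of these lists, while the sum of the 36 genes was highest in mutant 2. The part of lymphocytes in the mitotic genes of control 1 was not tested. With control 1 left out, the median of the 36 was 0.06, beside -0.14 for all genes.

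**Figure D5:**
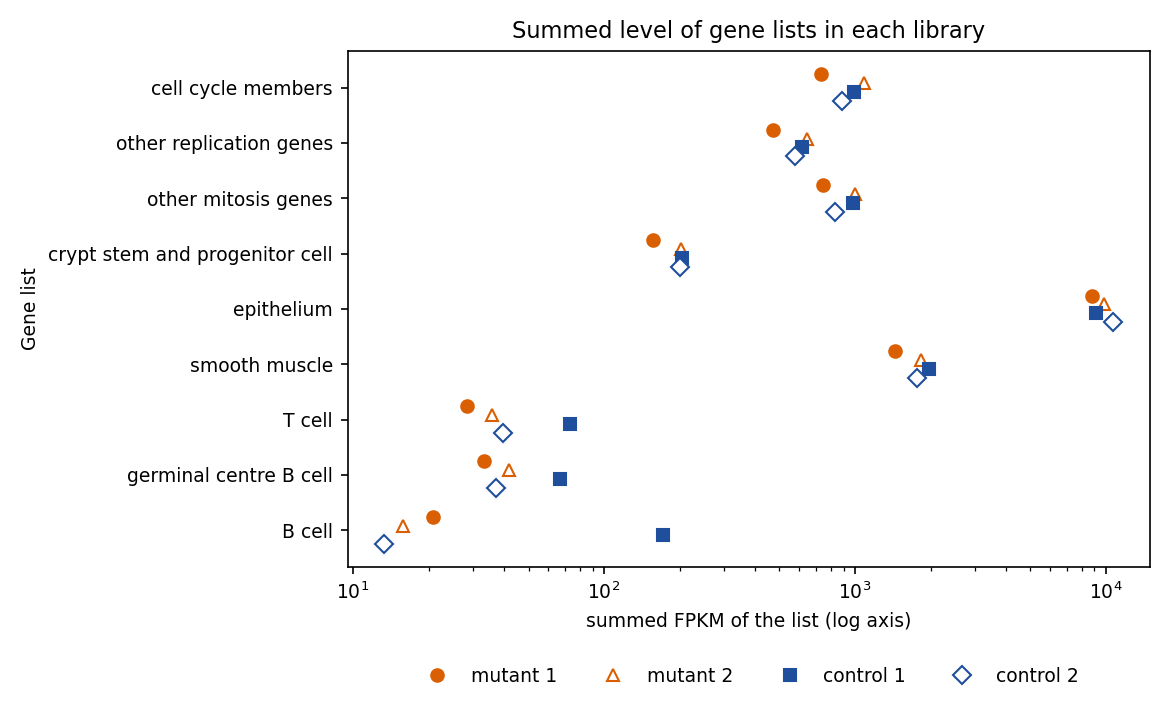
Summed FPKM of gene lists in each of the 2 mutant and 2 control libraries, on a log axis. Control 1 stands apart in the B cell list, at 173 FPKM, and the summed level of the 36 cell cycle genes lies between 734 and 1090.0 FPKM.

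Further genes of the same processes were examined as lists, and 0 genes of any of them passed the adjusted threshold. Of 45 other replication genes tested, 7 were above 0 and 38 below, with a median log2 change of -0.10, and after rescaling 32 were above 0. Rpa1, of the single-strand binding complex, had 13.1 and 20.4 FPKM in the mutant libraries, against 23.4 and 20.8 FPKM in the control libraries. Rfc2, of the clamp loader, had 33.7 and 45.5 FPKM in the mutant libraries, against 51.9 and 45.7 FPKM in the control libraries. These had the smallest unadjusted p of that list, 0.114 for Rpa1 and 0.166 for Rfc2, in limma.

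Of 20 other nucleotide supply genes, 3 were above 0 and 17 below, with a median of -0.11, and after rescaling 15 were above 0. Paics, an enzyme of purine synthesis, had 27.8 and 33.7 FPKM in the mutant libraries, against 40.7 and 40.2 FPKM in the control libraries, at an unadjusted p of 0.0631. Rrm2b, the p53-inducible small subunit of ribonucleotide reductase, had 2.99 and 2.83 FPKM in the mutant libraries, against 4.43 and 3.81 FPKM in the control libraries, at an unadjusted p of 0.0843. Neither passed the adjusted threshold (0.825 for each).

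Of 72 other mitosis genes, 29 were above 0 and 43 below, with a median of -0.02, and after rescaling 61 were above 0. Pttg1, securin, had 37.2 and 39.3 FPKM in the mutant libraries, against 51.5 and 44.3 FPKM in the control libraries. Cenpn, a centromere protein, had 2.20 and 3.39 FPKM in the mutant libraries, against 4.13 and 3.93 FPKM in the control libraries. Both had an adjusted p of 0.825.

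Of 30 cell cycle regulators, 9 were above 0 and 21 below, with a median of -0.10, and after rescaling 21 were above 0. Myc, a growth-promoting transcription factor, had 10.4 and 14.5 FPKM in the mutant libraries, against 20.8 and 15.3 FPKM in the control libraries, at an unadjusted p of 0.0594. E2f6, a repressive E2F factor, had 5.60 and 8.40 FPKM in the mutant libraries, against 9.75 and 9.32 FPKM in the control libraries. Cdk4, the kinase of D cyclins and the highest of the list, had 79.5 and 106 FPKM in the mutant libraries, against 102 and 95.8 FPKM in the control libraries.

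Genes that hold the cycle back had a median close to that of all genes. Of 22 inhibitors of cyclin-dependent kinases and arrest genes tested, 2 were above 0 and 20 below, with a median of -0.19 beside -0.17 for all genes, and after rescaling 9 were above 0. Btg2, an antiproliferative gene, had 25.0 and 29.4 FPKM in the mutant libraries, against 38.4 and 39.8 FPKM in the control libraries. Sesn2, a stress-induced sestrin, had 4.15 and 4.89 FPKM in the mutant libraries, against 6.57 and 7.05 FPKM in the control libraries. Their unadjusted p-values were 0.0209 for Btg2 and 0.0318 for Sesn2 in limma, and the adjusted p was 0.825 for each. Cdkn1a, the inhibitor p21, had 135 and 171 FPKM in the mutant libraries, against 116 and 224 FPKM in the control libraries, and so overlapped.

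Some of these values may hold reads of other genes. The sources used here do not say whether counting used strand, and exons on the opposite strand overlap Gins2 (2758 bases with Gse1), Ccnd1 (818 bases with Oraov1), Ccne2 (609 bases with Ints8), Ube2c (592 bases with Tnnc2), Ccna2 (512 bases with Exosc9) and Mcm7 (321 bases with Ap4m1) in GENCODE vM1. Annotated pseudogenes carry the names of Ccnb2 and Pcna. Of the 36 genes 31 had 1 deposited transcript and 5 had 2 (Cdc6, Birc5, Bub1, Ccne2 and Tyms). The Birc5 transcript of 972 bases held 98.6% and 97.9% of the gene's FPKM in the mutant libraries, against 98.1% and 98.6% in the control libraries. The 2 transcripts of Bub1, of 4334 and 4337 bases, differ by too little in length for their shares to be compared here.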

How the data were processed

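Whole-tissue colon RNA was measured in 4 libraries, 2 mutant and 2 control. Per the file headers, the authors' gene and isoform files hold FPKM with a 95% interval and a status per row, and the isoform files also hold the deposited coverage signal and transcript length. The authors' deposited table of DESeq results holds group means of normalized counts (a signal), the mutant to control ratio (fold), the log2 of that ratio, and p-values. Of the authors' tools, TopHat, Cufflinks, DESeq and bcl2fastq 1.8.4 are named in the submitters' processing notes, with the build mm9. Other versions and settings are not given in the sources used here. No 2 libraries held identical values.

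No count model was used, since FPKM are normalized values. Any row whose status was not OK in each library was left out (306 of 23699), and rows of 1 symbol were added together (23074 symbols). For the 13997 genes whose mean reached 0.5 FPKM, log2(FPKM + 0.5) entered a fit in limma 3.58.1 (R 4.3.3) that used a variance trend, 2 residual and 6.27 prior degrees of freedom, and two-sided p-values adjusted by the Benjamini-Hochberg method at 0.05 over all tested genes. The log2(FPKM + 0.5) scale understates the change of low genes. Pooling the spread over genes lets single genes pass with 2 libraries a group. The fit was tested on simulated data.

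The depth of the libraries is not in the files. It was read from the ratio of coverage to FPKM, and fragments per value from the width of the 95% interval. In transcripts of genes with 1 isoform and under 50 fragments, 87.3% (control 1) to 88.7% (mutant 1) of such numbers lay within 0.05 of a whole number. They cover counting error only, and the reading was not checked for genes with more than 1 isoform.

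The members, lists, markers and tests were chosen with earlier results of these data known. Each library's value was printed for genes that did not overlap between groups and for the 10 highest and 5 lowest by mean FPKM, and also for Mki67, Foxm1 and Cdt1, which were added after their values were seen. Of each other list, the genes with the 2 smallest p-values and the 2 highest means could be named. Of the marker lists up to 3 genes could be named, with Pax5 and Ms4a1 for B cells. Some genes that the rule names are left out of the text. Of 47 other replication genes listed, 45 symbols were found and tested, and of 24 inhibitor and arrest genes, 22 passed the minimum.

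Alternatives covered the pseudocount, the filter, median ratio and quantile scaling, row status, summing of rows, removal of small RNA and histone genes followed by rescaling of every library to 1 total, the variance trend, a replicate block, leaving out single libraries, and the authors' table. Exon overlaps come from GENCODE vM1 on the mm9 assembly, and promoters from RefSeq (GRCm38.p6), used only for sequence.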

Additional observations from a re-analysis of the deposited data

How the results depend on the processing

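Under every alternative run, 0 of the 36 genes passed the adjusted threshold. Only a small part of all genes passed in any of them, so this count of 0 says little about the 36. The number of calls over all genes depended on the processing. limma called 9 of all tested genes as reported, 2 with no filter on low values, 3 after median ratio rescaling, 2 after quantile normalization and 0 where small RNA and histone genes were removed and the libraries then rescaled to an equal total (477 had an unadjusted p under 0.05 there, and the authors' deposited table holds 8 calls). With a library left out it called from 8 (without mutant 1) to 356 (without control 2) genes, 12 without mutant 2 and 119 without control 1, where the lone library of a group was assumed to vary like the other group. The cause was not tested.

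With the replicate number as a block, 195 of 13997 genes were called, of which 0 were among the 36. The labels give only a shared number, and same-numbered libraries did not deviate together (Pearson r = -0.00217 across 13997 genes, which are not independent replicates), so the block was not used as a pairing.

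The median log2 change of the 36 was -0.04 as reported and ran from -0.33 without mutant 2 to 0.22 without mutant 1. It was 0.06 without control 1 and -0.13 without control 2. The median of all genes was -0.28 without mutant 2 and -0.07 without mutant 1. The median log2(FPKM + 0.5) level of the 36 in a library had an SD of 0.29 between libraries of 1 group, pooled over the 2 groups. That is the spread of a level and not of the median change.

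Median ratio rescaling took the number of the 36 above 0 to 30, against 11 as deposited. Of the 17 genes with a printed change, 4 crossed 0 with the scaling. After median ratio rescaling they were 0.12 for Ube2c, 0.16 for Cdc20, 0.018 for Pcna and 0.021 for Mcm6. After quantile normalization they were 0.093 for Ube2c, 0.13 for Cdc20 and 0.0052 for Mcm6, and after removal of small RNA and histone genes with that rescaling 0.068 for Ube2c and 0.10 for Cdc20. In the authors' deposited table they were 0.11 for Ube2c, 0.13 for Cdc20 and 0.020 for Mcm6. With 1 library left out, the change ran from -0.41 to 0.31 for Ube2c, from -0.27 to 0.24 for Cdc20, from -0.35 to 0.036 for Pcna and from -0.46 to 0.15 for Mcm6. It ran from -0.38 to 0.51 for Ccnd1, from -0.29 to 0.34 for Bub1, from -0.20 to 0.45 for Top2a, from -0.18 to 0.30 for Birc5, from -0.17 to 0.23 for Ccna2, from -0.20 to 0.31 for Ccne2, from -0.083 to 0.29 for Cdc6, from -0.075 to 0.35 for Mki67, from -0.046 to 0.38 for Foxm1 and from -0.017 to 0.11 for Ccne1. E2f1, Ccnb2 and Ccnd2 were below 0 in each of these fits. With 1 library left out E2f1 ran from -0.53 to -0.38, Ccnb2 from -0.58 without mutant 2 to -0.047 without mutant 1, and Ccnd2 from -0.56 without mutant 2 to -0.0054 without mutant 1. E2f1 was -0.30 after median ratio rescaling and -0.25 after quantile normalization.

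The depth of mutant 1, 0.464 of that of control 1, limits the low genes: Ccne2, E2f1 and Cdc6 had 53.8, 58.0 and 63.1 implied fragments there.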
